A study of Drosophila melanogaster with 6 samples.

Results

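The 49 genes described here are developmental regulators: homeobox, T-box, forkhead and zinc-finger transcription factors of the embryo and the imaginal discs, nuclear receptors, and the signal gene hh. They were chosen by name from a list of genes known in the fly as targets of Polycomb repression, and they make up 49 of 13946 protein-coding genes on placed chromosomes. Polycomb repression is a form of silencing in which protein complexes bring the histone mark H3K27me3 to developmental genes and hold them off in cell types that do not use them. Its targets were defined largely in the Drosophila embryo, where en, eve, Dll and the Hox genes serve as textbook examples. No Polycomb mark or transcript was measured here, so the name of the list describes the genes and not their state in these cells.

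Accessible DNA was mapped by ATAC-seq, in which the transposase Tn5 inserts adapters into open chromatin, in sorted progenitors of the adult Drosophila melanogaster midgut (intestinal stem cells and their daughters, the enteroblasts). The H1 RNAi group (replicates A, B and C) carried esgts, UAS-GFP and UAS-H1 RNAi 1, which directs RNA interference against the linker histone H1. The control group (replicates A, B and C) carried esgts and UAS-GFP alone. The driver esgts is a temperature-sensitive escargot driver, so GFP and RNAi were limited to cells with escargot activity, and 1 RNAi construct was used. All flies were females, 3 days old at the start, held for 2 days at 18 °C and then for 4 days at 29 °C on poor food. Each replicate pooled 70 guts and gave 50000 to 100000 GFP-positive cells, so a region open in few cells cannot be told apart from one weakly open in all of them.

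The H1 RNAi lists held 6564, 9827 and 7261 peaks (A, B and C) and the control lists 6142, 10872 and 8602. Background, estimated from the caller's own values as fragments per base, was 5.26, 4.83 and 8.28 in H1 RNAi A, B and C, against 5.04, 20.7 and 10.1 in controls A, B and C. The label of the cells was checked on marker genes. Gene-end peaks, as defined in the next paragraph, were called at 9 to 11 of 13 progenitor markers in the H1 RNAi lists and at 9 to 12 in the control lists. The defining gene escargot (esg) and the Notch receptor gene N had one in all 6, the stem cell ligand gene Delta in 1 H1 RNAi library and 3 controls, and upd1 in none. Within the gene or 2 kb on either side, Delta had a peak in all 6. Enteroendocrine markers reached 0 to 2 of 12 in H1 RNAi and 0 to 4 in controls, and enterocyte markers 1 to 3 of 11 in either group. Muscle markers reached 3 to 5 of 12 in H1 RNAi and 2 to 6 in controls, and neuronal markers 1 to 3 of 10 and 1 to 2 of 10. Over all protein-coding genes the mean share was 37.2% in H1 RNAi and 42.7% in controls. Progenitor markers lay above it, at 74.4% and 82.1%, and muscle markers near it, at 33.3% and 36.1%. Enteroendocrine, enterocyte and neuronal markers lay below it. These shares were not tested, and the counts alone do not show which cell types were present. RNA was not analysed here, so the depletion of H1 was not checked.

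Each gene was read in 2 ways. A gene-end peak overlapped by 1 bp or more a window of 500 bp on either side of the first or last base of the gene. A locus peak overlapped the gene or 2 kb on either side of it. By gene-end peaks the 49 genes fell into 17 with a peak in all 6 libraries, 12 with a peak in 1 to 5 libraries and 20 with a peak in no library. The shares were 34.7%, 24.5% and 40.8%, beside 22.3%, 34.5% and 43.2% of all 13946 protein-coding genes. Developmental regulators are long genes, with a median of 8.52 kb against 2.16 kb over all protein-coding genes. That difference in length was not adjusted for, and the shares were not tested against each other. By locus peaks, 23 genes had a peak in all 6 libraries, 13 in some and 13 in none, beside 35.9%, 35.2% and 28.8% of all genes.

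**Figure D1:**
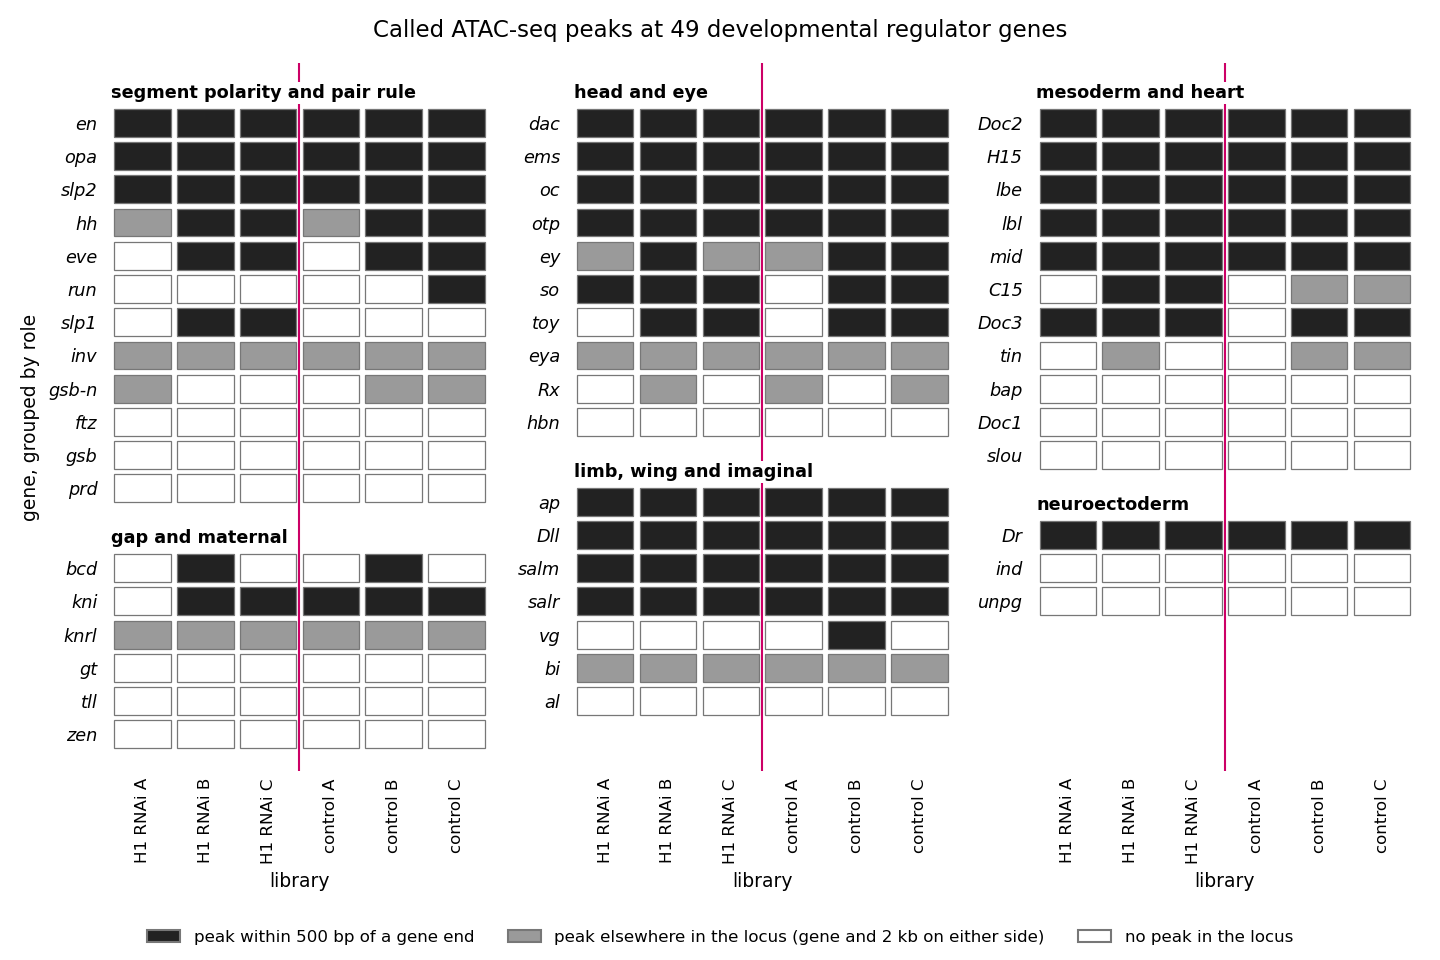
Called peaks at the 49 genes (rows, grouped by role) in the 3 H1 RNAi and 3 control libraries (columns; the vertical line separates the groups). Black marks a gene-end peak, grey a peak elsewhere in the gene or its 2 kb flanks, and white no peak. Of the genes, 17 are black in all 6 columns and 13 are white in all 6.

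The number of these genes with a peak was close in the 2 groups. A gene-end peak was called at 19, 27 and 25 genes in H1 RNAi A, B and C, against 18, 26 and 25 genes in controls A, B and C. The ranges overlapped almost in full, and the A library was lowest in both groups. The means were 23.7 ± 4.16 genes in H1 RNAi and 23 ± 4.36 in controls (SD, n = 3 each), a difference of 0.667 genes (exact two-sided permutation p = 0.8, adjusted p = 1 over the 5 tests made). With 3 libraries against 3 this test cannot give a p below 0.1. The difference was −1 without H1 RNAi B, 0 without H1 RNAi C and −1.83 without control A. A locus peak was called at 26, 33 and 30 genes in H1 RNAi A, B and C, against 25, 33 and 33 in the controls. These counts averaged 29.7 ± 3.51 in H1 RNAi and 30.3 ± 4.62 in controls (SD, n = 3 each; exact permutation p = 1). This difference of −0.667 turned to 1.17 without H1 RNAi A and to 0.667 without control B or without control C.

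Over all protein-coding genes, the share with a gene-end peak ranged more widely across the libraries. It was 35.3%, 46.0% and 30.3% in H1 RNAi A, B and C, against 29.0%, 53.4% and 45.8% in controls A, B and C. Among the 49 genes the shares were 38.8%, 55.1% and 51.0% in H1 RNAi, against 36.7%, 53.1% and 51.0% in controls. H1 RNAi C was the library where the list and the genome lay furthest apart, at 51.0% of the regulators and 30.3% of all genes.

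**Figure D2:**
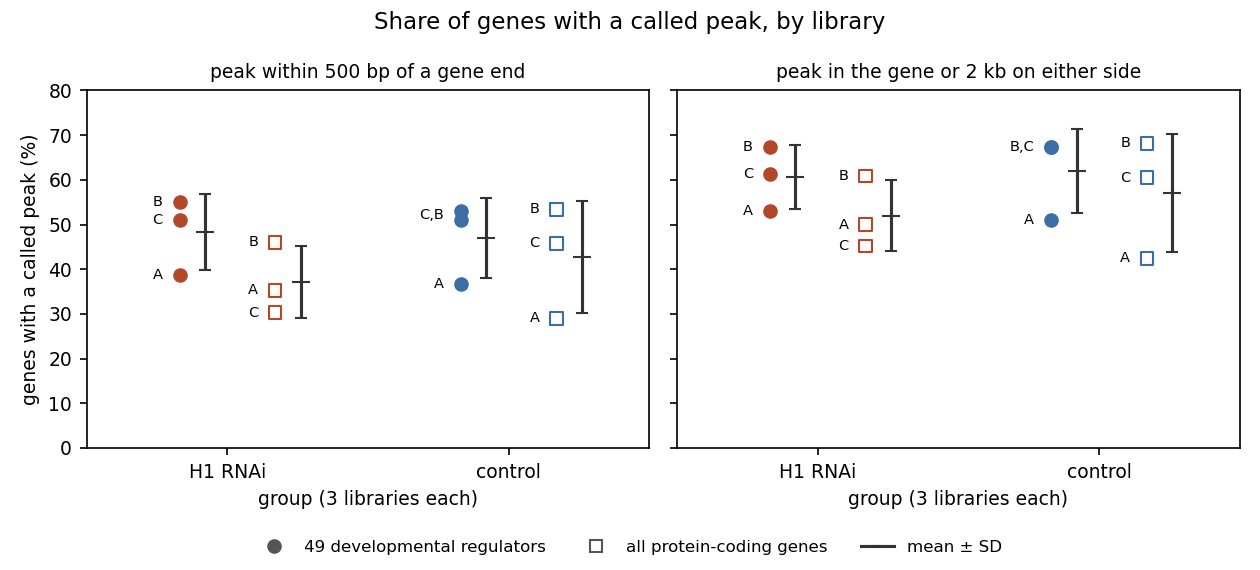
Share of genes with a called peak (%) in each library, by group, for the 49 developmental regulators (filled circles) and all protein-coding genes (open squares), with the letter of the replicate beside each point and mean ± SD as bars. Left, gene-end peaks; right, peaks in the gene or its 2 kb flanks. The regulators stand between 36.7% and 55.1% at gene ends, and the 2 groups overlap.

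The loci of the 49 genes together spanned 762 kb. They held 33, 45 and 39 peaks in H1 RNAi A, B and C, against 30, 51 and 51 in controls A, B and C, or 39 ± 6 and 44 ± 12.1 peaks (SD, n = 3 each; exact permutation p = 0.6). In number these peaks differed by −5, which became −12 without control A, −8 without H1 RNAi B, −2 without H1 RNAi A, and −1.5 without control B or without control C. As a share of each list these peaks came to 0.514 ± 0.0447% in H1 RNAi and 0.529 ± 0.0670% in controls (SD, n = 3 each; exact permutation p = 0.8). That difference turned positive without H1 RNAi B (0.00757 percentage points) and without control C (0.0229 percentage points). Within the genes alone, with no flanks, the share was 0.189 ± 0.0133% in H1 RNAi and 0.272 ± 0.0370% in controls (SD, n = 3 each). The difference was −0.0832 percentage points (exact permutation p = 0.1, unadjusted and the smallest possible). It is 1 of 69 alternative values of the 5 tests. The same share over the bodies of all genes was not computed. Peaks covered 13.025, 13.842 and 12.851 kb of the loci in H1 RNAi A, B and C, against 10.026, 22.602 and 22.58 kb in controls A, B and C, or 13.2 ± 0.529 and 18.4 ± 7.25 kb (SD, n = 3 each). Control A lay below all H1 RNAi libraries and controls B and C above them (exact permutation p = 0.4). The difference of −5.16 kb became −9.35 kb without control A, where all H1 RNAi libraries lay below the remaining controls (exact permutation p = 0.1). It became −3.06 kb without control B and −3.07 kb without control C. Controls B and C also had the widest peaks genome-wide, with medians of 518 and 572 bp, against 416.5, 323 and 335 bp in H1 RNAi A, B and C and 364 bp in control A. The whole lists covered 3.35, 3.91 and 3.04 Mb in H1 RNAi A, B and C, against 2.75, 6.92 and 5.96 Mb in controls A, B and C. There too control A was lowest and controls B and C highest. The part of peak width and of whole-list coverage in the covered length of the loci was not tested.

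No single gene separated the groups completely. A gene-end peak in 3 of 3 H1 RNAi libraries and 0 of 3 controls was found at 0 of the 49 genes, beside 0.0359% of all protein-coding genes. The reverse was found at 0 of the 49, beside 0.222%. At these background rates a count of 0 among 49 genes says nothing about the regulators. No gene can pass a test with 3 libraries against 3. A difference of at least 2 libraries in favour of H1 RNAi was seen at 2 of the 49 genes, C15 and slp1, beside 0.459% of all genes. In favour of controls it was seen at 0 of the 49, beside 3.81%.

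The clawless homeobox gene C15 (chromosome 3R, 21499986 to 21512814) had a gene-end peak in H1 RNAi B and C and in no control. The region (3R, 21499075 to 21499697) lay 0.289 kb from the gene. It ranked low, above 15.7% of the peaks of H1 RNAi B and 33.3% of those of H1 RNAi C by −log10 q. Peaks covered 0, 305 and 470 bp of the C15 locus in H1 RNAi A, B and C, against 0, 36 and 43 bp in controls A, B and C. The control bases belong to a flank region (3R, 21514772 to 21515406) that was called in all 6 libraries and only partly reached into the locus. The difference of 2 libraries at C15 was 0 when peaks needed a −log10 q of 10 or more, a fold enrichment of 4 or more, or a window of 250 bp, and it was 1 with lists of equal length. The forkhead gene slp1 (2L, 3825675 to 3827099), a segmentation gene, had a gene-end peak of 122 bp in H1 RNAi B and of 164 bp in H1 RNAi C. The nearest peak lay 8.22 kb away in H1 RNAi A, against 9.46, 8.21 and 8.26 kb in controls A, B and C. The slp1 locus held no called base in H1 RNAi A or in any control. The difference at slp1 was 2 in each of those settings. Without H1 RNAi B or without H1 RNAi C the difference was 1 at both genes.

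The segment polarity and pair-rule genes lay out the repeated segments of the embryo. Of 12, 3 had a gene-end peak in all 6 libraries, 4 in some and 5 in none. The count was 3, 6 and 6 genes in H1 RNAi A, B and C, against 3, 5 and 6 in controls A, B and C. The engrailed gene en (2R, 11524006 to 11528210), a homeobox gene of posterior compartments, had a peak at its upper end in each library (2R, 11527878 to 11528463). That peak stood above 88.0%, 91.2% and 94.7% of the peaks in H1 RNAi A, B and C by −log10 q, and above 86.4%, 93.9% and 98.5% in controls A, B and C. Its neighbour and paralogue inv (2R, 11474465 to 11509695) had no gene-end peak in any library. It had a peak in the gene body, 0.901 kb from the lower end (2R, 11475366 to 11476040), in all 6. The 14.3 kb between en and inv held 0 peaks in every list. Further peaks in the inv body, at 2R, 11483021 to 11483462 and 11496455 to 11496857, were called in controls B and C alone.

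The Zic-family pair-rule gene opa had a gene-end peak in all 6 libraries, above 90.1% to 98.8% of the peaks of each list. The forkhead gene slp2, the paralogue of slp1, also had one in all 6 (2L, 3836489 to 3836845), and its locus held 2, 2 and 1 peaks in H1 RNAi A, B and C, against 1, 2 and 2 in controls. The secreted signal hh (3R, 23128169 to 23141906) had a gene-end peak in H1 RNAi B and C and in controls B and C. Its locus held 2, 2 and 2 peaks in H1 RNAi A, B and C, against 1, 3 and 3 in controls. A broad body region of hh, 1106 bp wide over the 6 lists (3R, 23139420 to 23140525), was called in all 6. An end peak of hh also fell in the end window of its neighbour CG31457, the single such case among the 29 genes with a gene-end peak. The homeobox pair-rule gene eve had a peak at its lower end in H1 RNAi B and C and in controls B and C, and in neither A library. The Runx factor run had peaks in control C alone, where its locus held 2. The homeobox gene ftz and the Pax genes gsb and prd had no locus peak in any library, and the Pax gene gsb-n had a peak in the flank alone, in H1 RNAi A and controls B and C.

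Gap and maternal genes act first in the embryo, and the dorsal gene zen was grouped with them here. Of these 6 genes, 0 had a gene-end peak in all 6 libraries, 2 in some and 4 in none. Over all protein-coding genes the shares were 22.3%, 34.5% and 43.2%, and the difference was not tested. The nuclear receptor gene kni had one in H1 RNAi B and C and in all 3 controls. In H1 RNAi A its nearest peak was 34.8 kb away. The related knrl had no gene-end peak but had a flank peak 0.953 kb away (3L, 20621612 to 20622363) in all 6, above 86.2% to 97.4% of the peaks of each list. The anterior determinant bcd had a peak at its upper end in H1 RNAi B and control B. The gap gene gt, the terminal gap gene tll and the dorsal homeobox gene zen had no locus peak in any of the 6.

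Head and eye genes were read next, among them the retinal determination network, in which the Pax6 genes ey and toy act upstream of eya, so and dac. Of 10 genes, 4 had a gene-end peak in all 6 libraries (dac, ems, oc and otp), 3 in some and 3 in none. The count was 5, 7 and 6 genes in H1 RNAi A, B and C, against 4, 7 and 7 in controls A, B and C. The orthodenticle gene oc (X, 8630159 to 8650681), a head homeobox gene, carried the highest-ranked peak of the 49 genes in 5 of the 6 lists, and otp carried it in control C. The region (X, 8650698 to 8651543) stood above 99.8%, 99.8% and 99.6% of the peaks in H1 RNAi A, B and C, and above 98.7%, 99.0% and 98.9% in controls A, B and C. The homeobox gene otp had 2 locus peaks in every library, the stronger above 96.4% to 99.4% of each list. At ems, a homeobox gap gene of the head, the end peak stood above 67.9%, 79.2% and 81.1% of the peaks in H1 RNAi A, B and C, and above 35.1%, 69.5% and 80.6% in controls.

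The eye genes were not called alike. The nuclear factor dac (2L, 16466512 to 16485998) had a peak at its upper end in all 6 libraries, and its locus held 1, 2 and 1 peaks in H1 RNAi A, B and C, against 1, 2 and 2 in controls. The Six-family gene so had a gene-end peak in all 3 H1 RNAi libraries and in controls B and C, while in control A its nearest peak was 11.5 kb away. The transcriptional cofactor eya had no gene-end peak, but 1 body peak (2L, 6535832 to 6536392), 8.38 kb from the nearest gene end, in all 6. The Pax6 gene ey, on chromosome 4, had the most locus peaks of the 49 on average over the libraries, with 2, 4 and 3 in H1 RNAi A, B and C, against 2, 6 and 6 in controls. In both A libraries the T-box gene bi had more, with 3. The gene-end peaks of ey were called in H1 RNAi B and in controls B and C. Peaks at the upper end of ey (4, 720385 to 720889) were called in controls B and C alone. The second Pax6 gene toy had a gene-end peak in H1 RNAi B and C and in controls B and C. The retinal homeobox gene Rx had a low-ranked flank peak in H1 RNAi B and in controls A and C, and hbn had no locus peak in any library.

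Genes of limbs, wings and other imaginal structures were called with little difference between libraries. Of 7, 4 had a gene-end peak in all 6 libraries, and the count with such a peak was 4, 4 and 4 in H1 RNAi A, B and C, against 4, 5 and 4 in controls. The limb homeobox gene Dll (2R, 24814822 to 24835667) had 2 locus peaks in every library, of which the end peak (2R, 24814295 to 24814978) stood above 81.5% to 96.2% of each list. The LIM homeobox gene ap, which marks dorsal wing identity, had an end peak in all 6, above 98.3%, 98.7% and 98.7% of the peaks in H1 RNAi A, B and C, and above 92.6%, 93.6% and 97.7% in controls. Its locus held 1, 1 and 1 peaks in H1 RNAi, against 1, 3 and 2 in controls. The spalt zinc-finger paralogues salm and salr each had an end peak in all 6. The 60.7 kb between them held 5, 4 and 5 peaks in H1 RNAi A, B and C, against 3, 6 and 5 in controls, with no other protein-coding gene in between. The T-box gene bi (X, 4412856 to 4485647), at 72.8 kb the longest of the set, had no gene-end peak. It had 3 locus peaks in every library, 1 in the flank and 2 in the body about 12.2 and 13.9 kb from the lower end, the strongest above 95.9% to 99.1% of each list. The wing selector vg had an end peak in control B alone, and the homeobox gene al had no locus peak in any.

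Mesoderm and heart genes specify cardiac, visceral and body-wall muscle in the embryo. Of 11, 5 had a gene-end peak in all 6 libraries, 2 in some and 4 in none. The count was 6, 7 and 7 genes in H1 RNAi A, B and C, against 5, 6 and 6 in controls A, B and C. Muscle markers, in cells sorted on escargot-driven GFP, a gate that should leave muscle out, had a gene-end peak at 3, 5 and 4 of 12 genes in H1 RNAi A, B and C, against 2, 6 and 5 in controls, and their part in these values was not tested. The Tbx20 paralogues H15 and mid each had an end peak in all 6, above 94.0% to 98.3% of each list at H15 and above 84.8% to 98.3% at mid. The 45.0 kb between them held 3, 2 and 2 peaks in H1 RNAi A, B and C, against 2, 3 and 3 in controls. Of the Dorsocross T-box genes, Doc2 had an end peak in all 6, Doc3 in all but control A, and Doc1 had no locus peak in any. The 22.1 kb between Doc2 and Doc1 held 1 peak in each list.

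The NK homeobox cluster, a group of muscle and heart homeobox genes on 3R from tin to slou, spans 182 kb with its 2 kb flanks and let neighbours be compared along 1 stretch. It held 6, 11 and 9 peaks in H1 RNAi A, B and C, against 6, 8 and 8 in controls. The ladybird genes lbl and lbe each had an end peak in all 6. The lbe region (3R, 21446272 to 21446783) stood above 76.6%, 87.5% and 78.4% of the peaks in H1 RNAi A, B and C, and above 60.1%, 56.9% and 61.4% in controls. The lbl region (3R, 21434145 to 21434538), in the 7.44 kb between the genes, stood above 50.5%, 78.4% and 70.0% in H1 RNAi, and above 9.70%, 32.2% and 29.5% in controls. These ranks come from lists of different length and background, and by themselves they show no change in a region. Among peaks with a fold enrichment of 4 or more, lbl had an end peak in 3 H1 RNAi libraries and 0 controls. It was the 1 gene of the 49 that did, beside 0.272% of all protein-coding genes under that fold minimum. Over all protein-coding genes, that minimum left 38 genes called in all H1 RNAi libraries alone and 3 in all controls alone. Without it the counts were 5 and 31. The heart gene tin and the visceral mesoderm gene bap, at the lower-coordinate end of the cluster, had no gene-end peak. Neither did the muscle identity gene slou, at the opposite end. A region beyond tin (3R, 21376357 to 21377422) was called in all 6 libraries and reached into its 2 kb flank, which it shares with mod(mdg4), in H1 RNAi B and controls B and C. The 6.91 kb between tin and bap held 0 peaks in every list, as did the 19.5 kb between bap and lbl. The 53.4 kb between lbe and C15 held 2, 5 and 4 peaks in H1 RNAi A, B and C, against 3, 3 and 3 in controls, and included the gene Fancm.

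**Figure D3:**
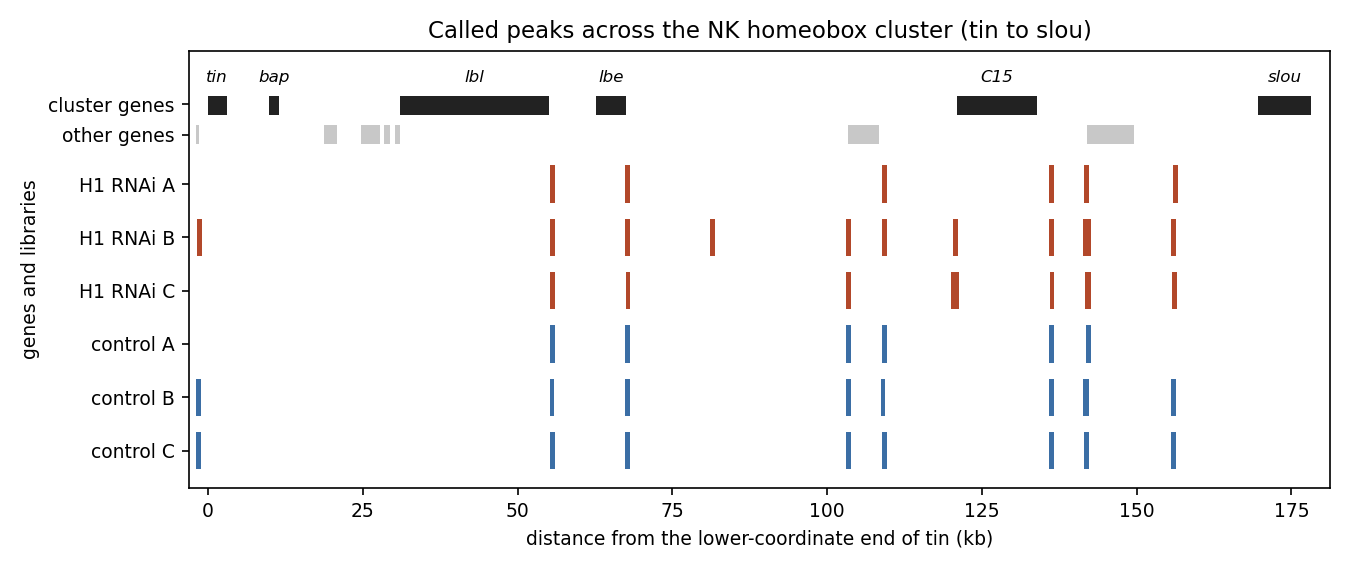
Genes and called peaks along the NK homeobox cluster, as distance in kb from the lower-coordinate end of tin, in 3 H1 RNAi (red) and 3 control (blue) libraries; peaks narrower than 0.8 kb are drawn 0.8 kb wide. The peaks beside lbl and lbe recur in all 6 libraries, no peak lies between tin and lbl, and the peak just before C15 is in H1 RNAi B and C alone.

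Of the neuroectoderm genes, the Msx-family homeobox gene Dr (3R, 29556386 to 29565244) had an end peak in all 6 libraries, above 86.3% to 97.5% of each list. The homeobox genes ind and unpg had no locus peak in any library, although a peak lay 3.03 to 3.11 kb from unpg in all 6.

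The 10 genes with the most locus peaks were ey, bi, hh, Dll, otp, inv, slp2, ap, dac and en, with 1.17 to 3.83 peaks a library on average. At the tenth place en was level with salm and so, and was taken by alphabetical order. Per 10 kb of locus the order was another, with 2.63 peaks at slp2 and 0.391 at bi. In 8 of these 10, all but hh and en, controls B and C each had more covered bases than the other 4 libraries. At ey peaks covered 653, 533 and 593 bp in H1 RNAi A, B and C, against 274, 2144 and 2457 bp in controls A, B and C. At ap they covered 307, 301 and 283 bp in H1 RNAi, against 203, 1364 and 1318 bp in controls. At inv they covered 199, 225 and 191 bp in H1 RNAi, against 251, 1329 and 1047 bp in controls. At ey and ap control A was the lowest library and controls B and C the highest, so the groups overlapped. At inv all 3 controls lay above the H1 RNAi libraries, control A by the least. How many of all genes separated in covered length in this way was not counted. At dac they covered 857, 989 and 800 bp in H1 RNAi, against 837, 1513 and 1567 bp in controls. The covered length differed less between libraries at bi, with 1028, 1116 and 1032 bp in H1 RNAi, against 941, 1192 and 1144 bp in controls. At otp it was 773, 727 and 675 bp in H1 RNAi, against 653, 909 and 798 bp in controls. The groups overlapped at dac, bi and otp, and control A was the lowest library at bi and otp. At en it was 530, 693 and 508 bp in H1 RNAi, against 526, 567 and 577 bp in controls. At Dll it was 542, 586 and 550 bp in H1 RNAi, against 510, 762 and 917 bp in controls. At hh it was 1708, 850 and 1036 bp in H1 RNAi, against 844, 1705 and 1468 bp in controls, and H1 RNAi A was the highest library there. At slp2 it was 430, 463 and 184 bp in H1 RNAi, against 152, 631 and 494 bp in controls. The groups overlapped at en, Dll, hh and slp2 as well. The median peak width of controls B and C was the largest of the 6 lists, and its part in these lengths was not tested.

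In all, 20 genes had no gene-end peak in any library, and these split into 3 kinds. At inv, eya, bi and knrl a locus peak was called in all 6 libraries, inside the gene or in its flank. The table of genes used here gives the outer ends of a gene and no internal transcript starts, so promoters inside these long genes, 19.5 to 72.8 kb, count as gene body. At tin, gsb-n and Rx a locus peak was called in some. The remaining 13 (ftz, bap, slou, gsb, unpg, Doc1, hbn, al, zen, ind, prd, tll and gt) had no peak within 2 kb in any H1 RNAi or control library. They were short, with a median of 2.68 kb, against 12.3 kb for the 17 genes with an end peak in all 6. The nearest peak to tll was 23.0 to 34.1 kb away over the 6 libraries, and that to al 16.3 to 25.5 kb, to ftz 14.1 to 15.4 kb and to Doc1 12.6 to 21.9 kb. For gsb it was 11.3 to 11.9 kb, for bap 11.5 to 12.2 kb, for hbn 10.9 to 35.7 kb and for slou 4.49 to 23.0 kb. The distances for prd were 7.90 to 17.9 kb, for ind 7.65 to 35.5 kb, for gt 7.38 to 18.9 kb and for zen 5.29 to 37.4 kb.

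The 12 genes with a gene-end peak in some libraries were called in differing sets of libraries. H1 RNAi A, B and C had a peak at 2, 10 and 8 of them, against 1, 9 and 8 in controls A, B and C. The A libraries were lowest in both groups, and their lists were the shortest of their group. At eve, hh and toy the peak was called in B and C of both groups and in neither A library. The genes so and Doc3 had it in all libraries but control A, and kni in all but H1 RNAi A. C15 and slp1 had it in H1 RNAi B and C alone, vg in control B alone and run in control C alone. At bcd it was called in both B libraries, and at ey in H1 RNAi B and controls B and C. Whether the calls went with the library or the group was not tested. Background was 5.26, 4.83 and 8.28 fragments per base in H1 RNAi A, B and C, against 5.04, 20.7 and 10.1 in controls A, B and C. Both A libraries and H1 RNAi B had the lower values, and the other 3 libraries the higher. The part of list length and background in these calls was not tested.

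All 17 genes with an end peak in all 6 libraries had it at a single end. Over all protein-coding genes of at least 2 kb with an end peak in all 6, 562 of 2332 (24.1%) had peaks at both ends in 1 or more libraries. The gene table gives no strand, so the ends were not told apart as start or stop of transcription. Of the genes called in some libraries, hh and ey had peaks at both ends.

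**Figure D4:**
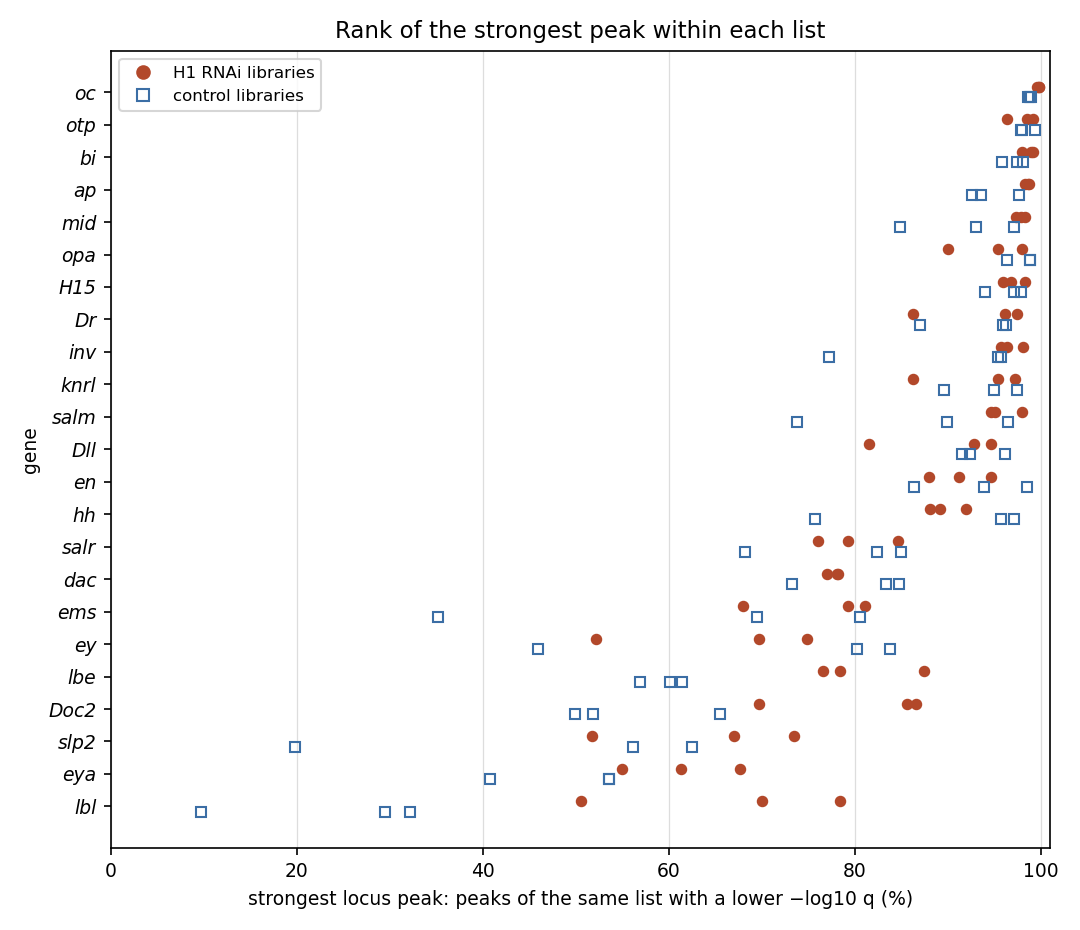
Rank of the strongest peak in the locus, as the share (%) of peaks of the same list with a lower −log10 q, for the 23 genes with a locus peak in all 6 libraries; filled circles are H1 RNAi and open squares control libraries. The points of oc, otp and bi lie above 95% in each list, and those of lbl spread from 9.70% to 78.4%. Lists differ in length, so ranks are read within a list.

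Where peaks of different lists overlapped they were joined, which left 59 regions in the loci of the 49 genes. Of these, 31 (52.5%) were called in all 6 libraries, beside 37.8% of 10597 regions in the loci of all genes, and 7 (11.9%) in a single library, beside 21.4%. These shares were not tested against each other. A region counted where any part of it touched a locus, so some reached the locus in only some of their libraries. Counted by summits in the loci, 28 regions were called in all 6. A region called in 3 of 3 H1 RNAi libraries and no control was found 0 times, beside 0.151% of regions in gene loci. The reverse was also found 0 times, beside 0.566%. By a looser count, 3 regions (5.08%) had H1 RNAi peaks alone, beside 5.95% of regions in gene loci, and 10 (16.9%) had control peaks alone, beside 21.9%. Both shares were near those of all gene loci. Regions in all 6 libraries lay at gene ends (17 of 31 regions there), in gene bodies (7 of 13) and in flanks (7 of 15).

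Other genes of the pathway were read from lists of Hox genes, further developmental regulators, and Polycomb and Trithorax group genes, whose products silence the regulators or keep them active. Of 8 Hox genes, 2 (lab and Dfd) had an end peak in all 6 libraries, 3 in some and 3 (Antp, Ubx and Abd-B) in none, names that were added after the values were seen. By locus peaks, 6 of the 8 had a peak in all 6 libraries, 2 in some and 0 in none. Antp, Ubx and Abd-B each had a locus peak in all 6. The Hox gene abd-A had an end peak in 3 H1 RNAi libraries and 1 control. The 42 further regulators had an end peak in all 6 libraries at 26 genes (61.9%), in some at 3 and in none at 13. The Polycomb group genes themselves had an end peak in all 6 libraries at 10 of 24 genes, in some at 13 and in none at 1. Trithorax group genes had it in all 6 at 3 of 12, in some at 8 and in none at 1. The counts per library were 14, 21 and 13 Polycomb group genes in H1 RNAi A, B and C, against 16, 23 and 21 in controls. The gene psq of the Polycomb list and osa of the Trithorax list each had an end peak in 1 H1 RNAi library and 3 controls. Both had a locus peak in all 6 libraries. Leads of at least 2 libraries were seen at 3.81% of all protein-coding genes for controls and at 0.459% for H1 RNAi. These differences between lists were not tested.

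**Figure D5:**
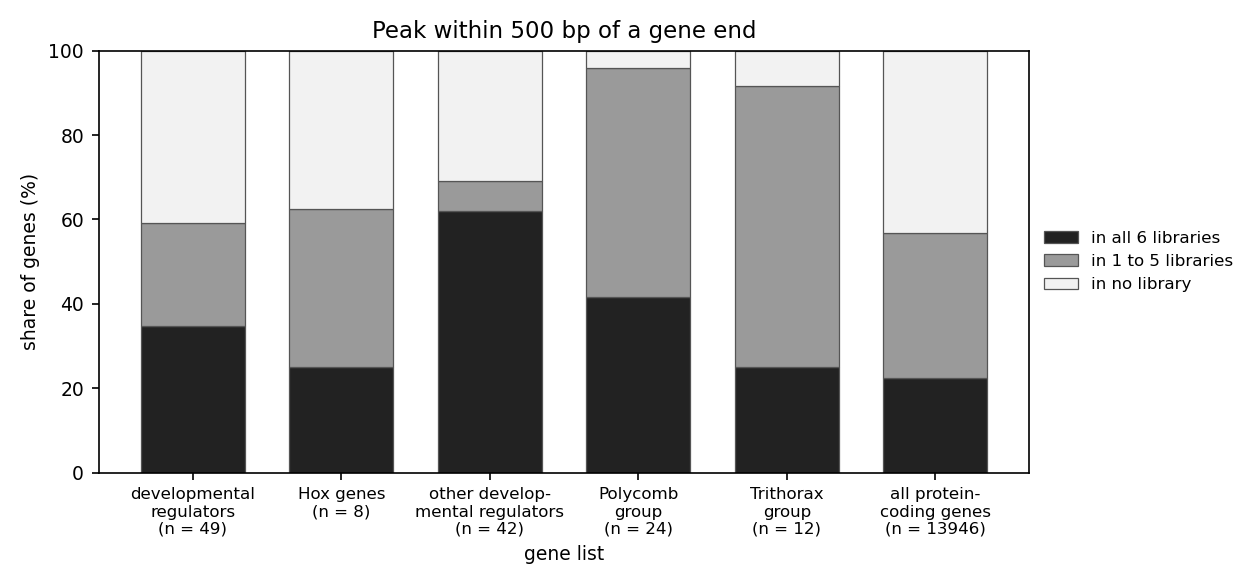
Share of genes (%) with a gene-end peak in all 6 libraries, in 1 to 5 libraries and in no library, for the developmental regulators, 4 related lists and all protein-coding genes (number of genes under each bar). The share in no library is 40.8% for the 49 regulators and 4.17% for the Polycomb group genes.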

How the data were processed

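The submitters' processing notes name Trim Galore, Bowtie2, Picard and MACS2 and the genome build dm6. For their versions, settings and any Tn5 shift, the sources say nothing. For each sample 1 narrowPeak list was deposited. In each deposited list the authors' caller gives a start, end and summit position, an integer score, a fold enrichment, which is a ratio, and a p-value and q-value, both as −log10. Fold and q ranked or filtered peaks within a list. Read totals were not used here. Background was solved from fold and p, since the caller's summit coverage came out whole (within 0.02 fragments) for about 99.9% of peaks or more per list. The lowest −log10 q lay between 2.00 and 2.05.

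Genes came from the NCBI table of the same assembly (Release 6), which gives no strand, transcripts or sequence, so no sequence is printed. All 49 genes matched by symbol, and 4 genes of other lists by a newer symbol. Peaks overlapping by 1 bp were merged into regions. Library values were compared between groups with an exact permutation test, two-sided (Python 3.11.15, numpy 2.4.6), with Benjamini-Hochberg adjustment over 5 tests. Replicates are separate pools of guts per the labels. In simulated lists, the code recovered peaks planted in every library of a group and in none of the other. The planted genes lay away from other peaks. That checks the overlap code alone and says nothing about the power to detect changes in these data.

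Every gene is named by class, with values in full for the 10 with most locus peaks, those differing by 2 or more libraries and those with no end peak. Genes named for their rank or their neighbours, and the Hox genes, were added after their values were seen. The genes and lists were chosen with earlier results of these data known. The alternatives tried were peaks with a −log10 q of 10 or more, peaks with a fold of 4 or more, equal list lengths (the 6142 peaks with the highest −log10 q), the summit alone, other windows and flanks, reciprocal overlap, the replicate block and leaving out each library. Leaving out both A libraries, and the alternatives for C15 and slp1, were added after seeing the data.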

Additional observations from a re-analysis of the deposited data

How the results depend on the processing

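None of the 5 tests between the groups passed under any alternative, and none could with 3 libraries against 3. Signs of the differences (H1 RNAi minus control) often turned, and the cause was not tested. The difference in genes with an end peak (0.667) was −0.333 with a window of 250 bp and 0 with 1000 bp, and ran from −1.83 to 3 when single libraries were left out. The difference in genes with a locus peak (−0.667) was 1.33 when peaks needed a −log10 q of 10 or more, 3.67 when they needed a fold of 4 or more, 0.333 with equal lengths and with a flank of 5 kb, and 0.667 by summits, with −3.33 to 1.17 when single libraries were left out. The number of locus peaks (−5) became 6 with that fold minimum, and ran from −12 to −1.5 when single libraries were left out. The share of the list (−0.0152 percentage points) became 0.0990 with the stricter q, 0.0229 with the fold, 0.00560 by summits and 0.0236 with a flank of 5 kb, and −0.0400 to 0.0229 when single libraries were left out. With no flank the differences were −4.33 genes and −8.67 peaks (exact permutation p = 0.2 each) and −0.0832 percentage points (exact permutation p = 0.1). Covered length stayed lower in H1 RNAi in every alternative run. Over the whole lists, too, control A covered the least and controls B and C the most.

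Genes with an end peak in H1 RNAi alone numbered 1 (lbl) with that fold minimum, beside 0.272% of all genes, 0 to 2 when single libraries were left out, with 2 (C15 and slp1) without H1 RNAi A, and 2 without both A libraries, beside 0.158% in each case. H1 RNAi-only regions numbered 2 of 42 with the fold minimum (at Dll and lbl), beside 1.93% of regions in gene loci, 0 to 2 when single libraries were left out, with 2 of 59 without H1 RNAi A, beside 0.653%, and 2 of 59 without both A libraries, beside 0.684%. Control-only regions numbered 0 to 4 when single libraries were left out, with 4 of 59 without control A, beside 5.18%, and 5 of 59 without both A libraries, beside 5.98%. A rule on fewer libraries is looser. With the fold minimum, 1.93% of regions in gene loci were H1 RNAi-only and 0.0347% control-only. In the main lists these shares were 0.151% and 0.566%. Regions in all 6 libraries numbered 19 with no flank and 20 with reciprocal overlap of 50%. Without both A libraries, 6 genes in place of 12 had a peak in some libraries.

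With the replicate letter as a replicate block, the differences are the same by construction (0.667 for end peaks, exact paired permutation p = 0.5, where 0.25 is the smallest possible). Over all genes, same-letter libraries deviated from their group means with correlations of 0.0645, 0.308 and −0.153 for A, B and C, and H1 RNAi C went best with control A (0.304). Over the 49 genes the same-letter correlations were 0.483, 0.567 and 0.270, and every library went best with its own letter. Whether the letters mark pairs was not tested. The labels tie the letters to no shared day or batch, so the unpaired fit was kept. The block changed no call. The planned window on the gene start alone needs strand and was not run. Read depth is unknown from these lists, and a region with no called peak is not shown to be closed.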
